A study of Mus musculus with 12 samples.

Results

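The genes for eosinophil granule proteins and for the surface lectin Siglec-F were followed on 12 mouse arrays. Members were the probe sets whose symbol was Prg2, Prg3, Epx, Siglecf, Rnase2a, Ear1, Ear2 or Ear6. The symbol came from the platform annotation, updated through its gene identifier to the RefSeq symbol where found. Of these 8 genes, Prg2, Prg3, Epx, Siglecf and Rnase2a had 1 probe set each, which made 5 of the 45037 probe sets that were no controls. The other 3 genes, Ear1, Ear2 and Ear6, had no probe set listed under their symbol and 0 members lay on a probe set with several symbols, so these genes have no value here.

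The arrays formed 4 groups of 3. The first were Ts1Cje Trib1 lines, acute myeloid leukaemia (AML) cell lines that express Trib1 on the Ts1Cje background, and B6 Trib1 lines, the AML lines that express Trib1 on the B6 background, both with WT after Trib1 in their titles. The remaining groups were Ts1Cje and wild-type B6 hematopoietic cells, which are not labelled as expressing Trib1 and are called cells without Trib1 here. Ts1Cje is a mouse model of Down syndrome that is trisomic for a stretch of chromosome 16, and Trib1 is a pseudokinase that promotes the degradation of C/EBP alpha. All cells grew in 10% serum with IL-3 at 5 ng/ml, and 100 ng of total RNA was labelled for each array. The labels do not give the age of the animals, the construct or promoter behind Trib1 expression, or the number of lines, mice or cultures behind the 3 arrays of a group. The p-values therefore measure the spread between arrays, which may be technical, and the number of arrays limits the precision. Trib1 expression and the leukaemic state went together and cannot be told apart.

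Eosinophils store a small set of cationic proteins in their specific granules. Major basic protein (Prg2) forms the crystalline core, Prg3 is its homologue, and the surrounding matrix holds the peroxidase Epx and ribonucleases of the Ear family, of which Rnase2a is a member. Siglec-F, a sialic acid-binding inhibitory receptor, marks mouse eosinophils and is also carried by alveolar macrophages. The granule genes are switched on in myeloid progenitors under GATA-1 and C/EBP factors, before the cells mature, and receptors such as CCR3 mark the later stages.

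Values were deposited intensities on a linear scale. A probe set was called dim in a group when the group mean lay under the 40th percentile of the arrays, which ranged from 21.98 to 23.5. Array medians lay between 30.5 and 32.0 and maxima between 8041 and 8685, and arrays of a group correlated with each other at 0.996 to 0.999 across probe sets. Differences were fitted with limma to log2(intensity + 15) on 28543 probe sets that exceeded their array's 40th percentile on at least 3 of the 12 arrays, and a probe set was called at an adjusted p under 0.05. All 5 member probe sets passed this filter, and Rnase2a passed through the arrays without Trib1 and Siglecf chiefly through those with it.

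None of the member genes lies on the trisomic chromosome 16. In the reference gene table Prg2 and Prg3 lie on chromosome 2 with the single entry Gm39868 between them, Siglecf lies on chromosome 7 beside Siglecg, Epx on chromosome 11, and the ribonuclease genes on chromosome 14, where Ear14 is the neighbour of Rnase2a. Promoter windows of 250 bases before the transcript start were taken from RefSeq on GRCm38.p6 for 7 of the 8 genes, all except Prg2. The windows of the 4 genes below are shown because their levels followed different orders over the 4 groups. Capitals mark the GATA motif, which is GATAA or, from the opposite strand, TTATC, and the C/EBP motif, which is TTGCNNAA or, from the opposite strand, TTNNGCAA, and each window is written 5′ to 3′ along its gene.
Rnase2a, chr14:51256113-51256362, - strand: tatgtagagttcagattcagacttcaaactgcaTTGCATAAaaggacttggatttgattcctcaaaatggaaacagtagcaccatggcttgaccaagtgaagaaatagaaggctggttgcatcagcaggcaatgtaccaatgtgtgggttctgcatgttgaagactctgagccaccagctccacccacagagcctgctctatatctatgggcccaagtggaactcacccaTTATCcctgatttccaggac
Siglecf, chr7:43351091-43351340, + strand: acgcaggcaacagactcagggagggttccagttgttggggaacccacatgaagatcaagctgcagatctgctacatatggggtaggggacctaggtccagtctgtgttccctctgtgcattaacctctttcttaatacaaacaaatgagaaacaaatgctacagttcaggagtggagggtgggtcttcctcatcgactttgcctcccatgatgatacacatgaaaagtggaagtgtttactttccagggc
Prg3, chr2:84987965-84988214, + strand: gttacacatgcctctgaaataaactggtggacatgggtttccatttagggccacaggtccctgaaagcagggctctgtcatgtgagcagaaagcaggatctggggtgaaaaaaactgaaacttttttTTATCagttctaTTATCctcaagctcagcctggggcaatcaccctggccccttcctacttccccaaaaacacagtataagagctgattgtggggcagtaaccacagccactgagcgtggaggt
Epx, chr11:87875537-87875786, - strand: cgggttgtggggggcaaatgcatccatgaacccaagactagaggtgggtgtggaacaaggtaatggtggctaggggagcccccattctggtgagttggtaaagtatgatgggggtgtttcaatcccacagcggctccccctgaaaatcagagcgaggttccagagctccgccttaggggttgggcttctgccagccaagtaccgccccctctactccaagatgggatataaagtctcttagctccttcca

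The Prg3 window held the GATA motif at 2 places, starting 123 and 111 bases before the transcript start. The Rnase2a window held it once, 20 bases before the start, together with a C/EBP motif at 217 bases. The Epx and Siglecf windows held neither motif, and the Epx window held the TATA-box letters TATAAA. Over all 32851 promoter windows of this length, 22.6% held GATAA at least once and 4.28% at least 2 times, 9.56% held the C/EBP motif and 12.4% held TATAAA, each counted on both strands. The 3 genes without a probe set also lie on chromosome 14. The Ear6 window (from base 51853518) is nearer to that of Rnase2a than the windows of Ear1 (from 43819640) and Ear2 (from 44102404). Their windows resembled that of Rnase2a in 86.1% of 208 aligned bases for Ear1, 86.4% of 206 for Ear2 and 88.2% of 228 for Ear6. Bases left out of the alignment are not counted, so windows of other genes also score high. Prg3 matched Rnase2a in 70.6% of 194 aligned bases and Ear6 in 73.2% of 194. The Ear1 and Ear2 windows matched each other in 99.2% of 248 aligned bases and each held 1 C/EBP motif. A match of letters is a description of the window and not a binding site.

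**Figure D1:**
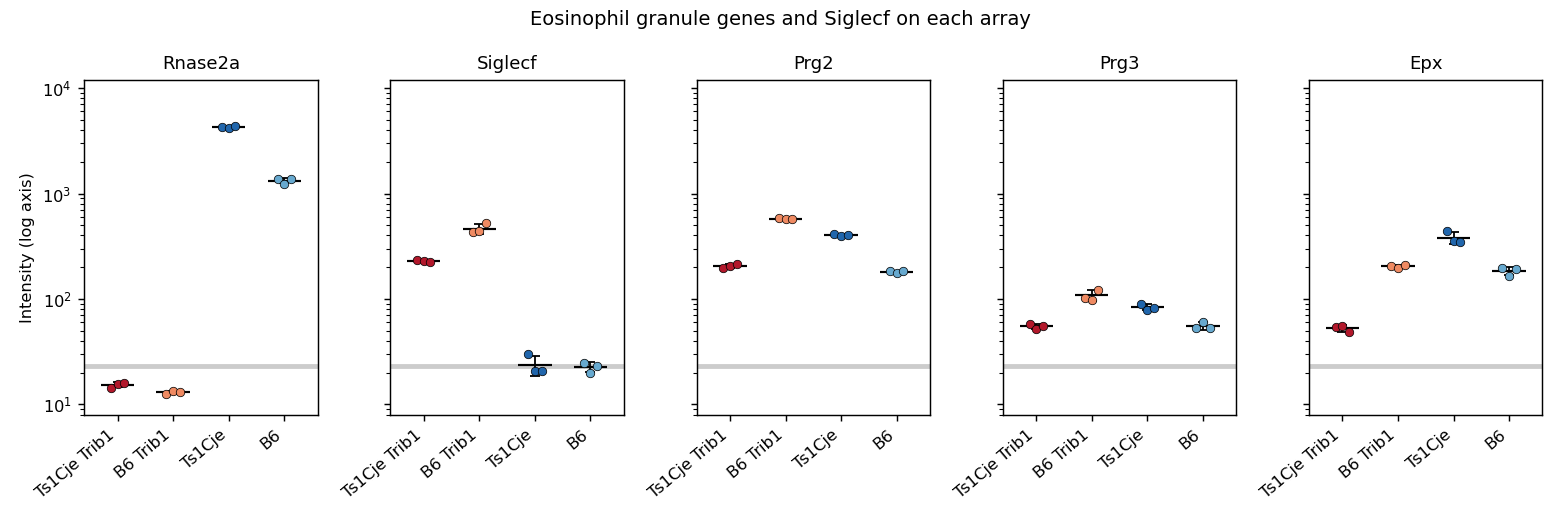
Intensity of each of the 5 member probe sets on every array (log axis), by group, with the group mean as a black line, the SD as bars and the range of the arrays' 40th percentiles (21.98 to 23.5) as a grey band. Rnase2a stands at 1244 or more on all arrays without Trib1 and at 16.0 or less on all arrays with it, whereas Siglecf stands at 224 or more with Trib1 and at 29.9 or less without.

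The plot of member intensities by array shows the order of the groups for each gene. Prg2 and Prg3 were highest in B6 Trib1 lines, followed by Ts1Cje cells, while Epx and Rnase2a were highest in Ts1Cje cells and Siglecf was highest in B6 Trib1 lines. Ts1Cje Trib1 lines stood lowest for Epx, and for Prg3 they overlapped B6 cells. The remaining neighbours in these orders that overlapped were Ts1Cje and B6 cells for Siglecf.

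Ts1Cje Trib1 lines had less granule gene RNA than B6 Trib1 lines. Prg2, Prg3, Epx and Siglecf were called lower, and for each of these 4 genes all 3 Ts1Cje Trib1 arrays lay below every B6 Trib1 array. The share of all probe sets without overlap was not counted, so the lack of overlap only describes the arrays. Of all probe sets tested, 6.82% were called lower and 8.91% higher in this comparison. In bulk RNA, fewer cells of a type and less RNA per cell cannot be told apart.

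Prg2, the precursor of the major basic protein, had intensities of 195, 206 and 214 in Ts1Cje Trib1 lines, against 583, 576 and 571 in B6 Trib1 lines. The means were 205 ± 9.65 in Ts1Cje Trib1 lines and 577 ± 6.02 in B6 Trib1 lines (SD, n = 3 each). The spread within either group was small beside the gap, and the log2 difference was -1.43 (SE 0.0403, limma adjusted p = 8.38e-11), an intensity 2.82 times lower in the trisomic lines.

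Epx, the eosinophil peroxidase that makes hypobromous acid from bromide and hydrogen peroxide, had intensities of 54.5, 55.3 and 48.6 in Ts1Cje Trib1 lines, against 205, 196 and 209.6 in B6 Trib1 lines. Its difference was the widest of the members in this comparison, with a log2 difference of -1.69 (SE 0.0833, limma adjusted p = 1.35e-08). The intensity ratio was 3.85.

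Prg3, the homologue of major basic protein, had intensities of 57.5, 52.1 and 54.9 in Ts1Cje Trib1 lines, against 102, 98.6 and 123 in B6 Trib1 lines. The B6 Trib1 arrays were the more variable, at 108 ± 12.9 (SD, n = 3), and still did not overlap the trisomic lines. The log2 difference was -0.81 (SE 0.0729, limma adjusted p = 4.39e-06).

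Siglecf had intensities of 235, 230.4 and 224 in Ts1Cje Trib1 lines, against 428, 446 and 522 in B6 Trib1 lines. The log2 difference was -0.97 (SE 0.09, limma adjusted p = 6.07e-06), an intensity 2.02 times lower in the trisomic lines, with no overlap. Rnase2a was dim in both lines, with intensities of 14.4, 15.7 and 16.0 in Ts1Cje Trib1 lines and 12.4, 13.4 and 13.1 in B6 Trib1 lines. Its log2 difference of 0.12 (95% interval 0.02 to 0.21) did not pass (limma adjusted p = 0.0885), and at this signal no fold is given.

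Setting B6 Trib1 lines against B6 cells split the members. Siglecf, Prg2 and Prg3 rose, Rnase2a fell to background and Epx was not called. Of all probe sets tested, 30.4% were called higher and 30.3% lower, so a call by itself was common in this comparison.

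Siglecf had intensities of 428, 446 and 522 in B6 Trib1 lines, against 24.8, 20.03 and 23.3 in B6 cells, where 2 of 3 arrays exceeded their array's 40th percentile. The means were 465 ± 49.9 in B6 Trib1 lines and 22.7 ± 2.45 in B6 cells (SD, n = 3 each), a ratio of 20.5. The log2 difference was 3.67 (SE 0.09, limma adjusted p = 1.03e-12).

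Rnase2a moved the other way. Its intensities were 12.4, 13.4 and 13.1 in B6 Trib1 lines, against 1366, 1244 and 1359.8 in B6 cells, and no array of the lines reached its 40th percentile for this gene. The fall was at least 57.4-fold, taking the 40th percentile as the level in the lines. The filter kept Rnase2a through the arrays without Trib1, where it is high, so its call here is no support. The fitted log2 difference of -5.58 depends on the offset, since the lines were dim.

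Prg2 had 583, 576 and 571 in B6 Trib1 lines, against 184, 177 and 183 in B6 cells, and Prg3 had 102, 98.6 and 123 in B6 Trib1 lines, against 52.6, 60.6 and 52.7 in B6 cells. Neither pair of groups overlapped, a trait whose share over all probe sets was not counted. The log2 differences were 1.59 for Prg2 (SE 0.0403, limma adjusted p = 1.37e-12) and 0.80 for Prg3 (SE 0.0729, limma adjusted p = 6.79e-07). Epx had 205, 196 and 209.6 in B6 Trib1 lines, against 195, 165 and 191 in B6 cells. The lowest line array and the highest B6 array nearly met, and the log2 difference of 0.14 (95% interval -0.04 to 0.32) did not pass (limma adjusted p = 0.163).

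On the trisomic background the granule genes were lower with Trib1 and Siglecf was higher. Rnase2a, Epx, Prg2 and Prg3 fell in Ts1Cje Trib1 lines relative to Ts1Cje cells, against a background of 23.7% of probe sets called lower and 30.4% called higher.

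Rnase2a had intensities of 14.4, 15.7 and 16.0 in Ts1Cje Trib1 lines, against 4248, 4210.4 and 4323 in Ts1Cje cells. The fall was at least 187-fold on the same bound, and the fitted log2 difference of -7.14 again depends on the offset. Its call here is likewise no support, since the filter kept it through the cells. The 3 arrays of each group lay close together beside this gap.

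Epx had 54.5, 55.3 and 48.6 in Ts1Cje Trib1 lines, against 442, 357 and 347 in Ts1Cje cells. The first Ts1Cje array was the highest, and the groups lay far apart, with a log2 difference of -2.54 (SE 0.0833, limma adjusted p = 1e-11). Prg2 had 195, 206 and 214 in Ts1Cje Trib1 lines, against 409, 394 and 405 in Ts1Cje cells, a log2 difference of -0.93 (SE 0.0403, limma adjusted p = 2e-10). For Prg3 the values were 57.5, 52.1 and 54.9 in Ts1Cje Trib1 lines, against 90.5, 79.1 and 82.0 in Ts1Cje cells, and the log2 difference was -0.50 (SE 0.0729, limma adjusted p = 5.03e-05). None of these 3 genes overlapped between the groups, and the share of all probe sets without overlap was not counted.

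Siglecf, in contrast, had 235, 230.4 and 224 in Ts1Cje Trib1 lines, against 29.9, 20.6 and 20.9 in Ts1Cje cells, where 1 of 3 arrays exceeded its 40th percentile. The log2 difference was 2.67 (SE 0.09, limma adjusted p = 1.38e-11), with a ratio of mean intensities of 9.67. Siglecf thus rose with Trib1 on both backgrounds, and Rnase2a fell on both.

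**Figure D2:**
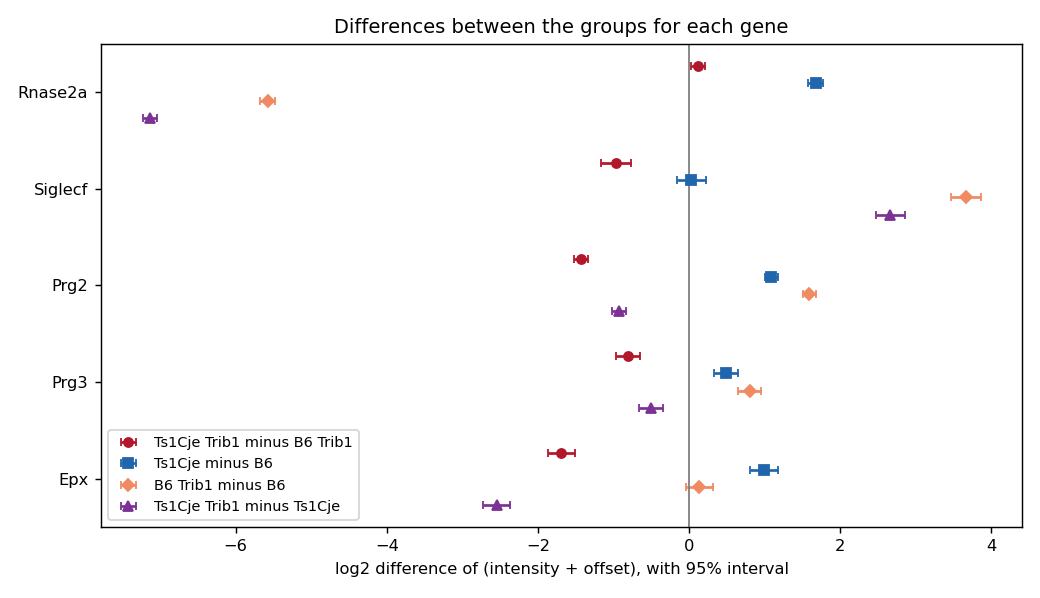
Difference in log2(intensity + 15) of each member in the 4 pairwise contrasts, with 95% intervals from limma as bars. Prg2 and Prg3 lie above 0 for B6 Trib1 minus B6 (1.59 and 0.80) and below 0 for Ts1Cje Trib1 minus Ts1Cje (-0.93 and -0.50).

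Without Trib1, Ts1Cje cells had more granule gene RNA than B6 cells. Rnase2a, Prg2, Epx and Prg3 were called higher, in a comparison where 19.2% of probe sets were called higher and 27.6% lower. Rnase2a averaged 4260 ± 57.3 in Ts1Cje cells and 1324 ± 68.6 in B6 cells (SD, n = 3 each), a log2 difference of 1.68 (SE 0.0436, limma adjusted p = 5.02e-11) that ranked 15 among all rises. Prg2 averaged 402 ± 7.51 in Ts1Cje cells and 181 ± 3.51 in B6 cells, 2.22 times higher (limma adjusted p = 8.08e-10).

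Epx averaged 382 ± 51.9 in Ts1Cje cells and 184 ± 16.1 in B6 cells (SD, n = 3 each), with a log2 difference of 0.99 (SE 0.0833, limma adjusted p = 9.41e-07). Prg3 averaged 83.8 ± 5.93 in Ts1Cje cells and 55.3 ± 4.57 in B6 cells, with a log2 difference of 0.49 (SE 0.0729, limma adjusted p = 0.000125). Each of these 4 genes was higher on all 3 Ts1Cje arrays than on any B6 array. How many of all probe sets lay apart in this way was not counted. Siglecf was near background in both groups and overlapped, with a log2 difference of 0.03 (95% interval -0.16 to 0.23, limma adjusted p = 0.779). The sign of that small difference turned when either the first Ts1Cje array (-0.077) or the second B6 array (-0.020) was left out.

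The genotype difference therefore had opposite signs with and without Trib1 for Prg2, Prg3 and Epx, and the interaction, in which the cells' genotype difference is taken from that of the lines, tests whether they differ. It was -2.52 for Prg2 (SE 0.057, limma adjusted p = 1.21e-11), -2.68 for Epx (SE 0.118, limma adjusted p = 2.57e-09) and -1.30 for Prg3 (SE 0.103, limma adjusted p = 6.68e-07). For Siglecf it was -1.0 (SE 0.127, limma adjusted p = 4.69e-05), where both groups without Trib1 were near background, so it restates the difference between the lines. For Rnase2a it was -1.56 (limma adjusted p = 9.96e-10), where both lines were dim, so it restates the difference between the cells. The values of Prg2, Epx and Prg3 stand beside 16.3% of all probe sets called negative and 25.8% called positive. The plot of member contrasts sets the pairwise values side by side. These contrasts share groups of arrays, so they are not independent of each other.

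Of 15 other ribonuclease A family genes listed, 8 had a probe set and 4 passed the filter, namely Ear3, Rnase4, Rnase2b and Rnase1. Rnase2b passed only through the Ts1Cje arrays, where it is high. In B6 Trib1 lines Ear3, Rnase4 and Rnase2b were called lower than in B6 cells, beside 30.3% of all probe sets, and the Rnase2b call, a log2 difference of -0.12 (limma adjusted p = 0.0421) with both groups dim, was lost with replicates as a block and with any of 6 arrays left out. In Ts1Cje Trib1 lines Ear3 and Rnase4 were called lower than in Ts1Cje cells, beside 23.7% of all probe sets. Without Trib1 Ear3 and Rnase4 were called higher in Ts1Cje than in B6 cells, beside 19.2% of all probe sets. Rnase2b was called in the same directions. The filter kept it because of the Ts1Cje arrays, so its calls in these contrasts are not counted. Rnase1, named outside the rule after its values were seen, was not called in any contrast (log2 differences of 0.02 in Ts1Cje Trib1 lines and -0.05 in B6 Trib1 lines relative to the cells of the same background).

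Ear3 is a symbol of the eosinophil-associated ribonucleases, a family with near-identical copies, and its 2 probe sets carry the suffixes s_at and x_at, which mark probes that can match several transcripts. Which copy they measured is uncertain. The s_at probe set averaged 22.9 ± 4.38 in Ts1Cje Trib1 lines, 79.0 ± 6.16 in B6 Trib1 lines, 467 ± 85.8 in Ts1Cje cells and 355 ± 16.8 in B6 cells (SD, n = 3 each). In Ts1Cje Trib1 lines 1 of 3 arrays exceeded its 40th percentile, so differences from that group are imprecise. It was lower in Ts1Cje Trib1 than in B6 Trib1 lines by a log2 difference of -1.32 (limma adjusted p = 1.84e-06), and lower with Trib1 on both backgrounds, at -3.66 for Ts1Cje and -1.98 for B6 (limma adjusted p = 3.31e-12 and 3.61e-09). The x_at probe set was dim in both lines, with falls of at least 7.65-fold for Ts1Cje and 5.64-fold for B6, and its difference between the lines was not called (limma adjusted p = 0.0623).

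Rnase2b, a close relative of Rnase2a, averaged 14.3 in Ts1Cje Trib1 lines, 14.5 in B6 Trib1 lines, 31.4 in Ts1Cje cells and 17.0 in B6 cells, and was dim in all groups except Ts1Cje cells. The fall in Ts1Cje Trib1 lines relative to Ts1Cje cells was at least 1.38-fold. Rnase4, which shares its locus with angiogenin and is not specific to eosinophils, averaged 55.0 ± 7.54 in Ts1Cje Trib1 lines, 57.5 ± 4.47 in B6 Trib1 lines, 762 ± 17.9 in Ts1Cje cells and 427 ± 17.4 in B6 cells (SD, n = 3 each). It was lower with Trib1 by -3.48 on the Ts1Cje and -2.61 on the B6 background (limma adjusted p = 6.55e-14 and 2.1e-12).

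**Figure D3:**
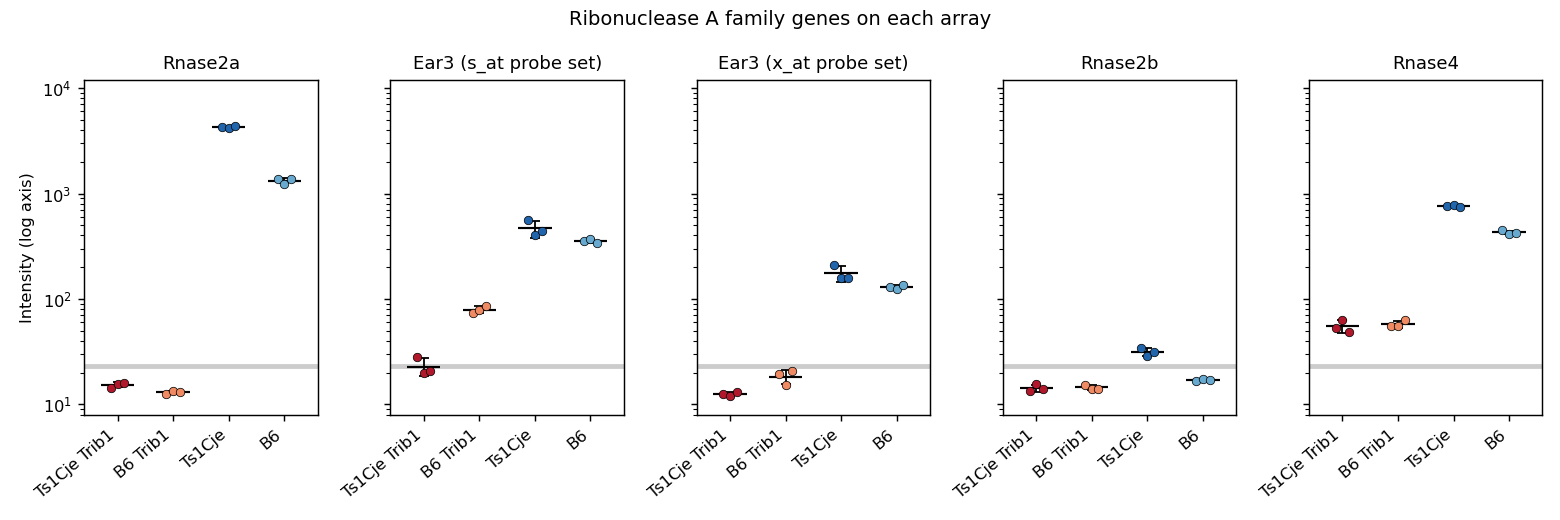
Intensity (log axis) of Rnase2a, both Ear3 probe sets, Rnase2b and Rnase4 on every array, by group, with the mean as a line, the SD as bars and the range of the arrays' 40th percentiles as a grey band. The s_at probe set of Ear3 stands lower in the Ts1Cje Trib1 lines (mean 22.9) than in the B6 Trib1 lines (mean 79.0), while Rnase4 stays near 55.0 to 57.5 in both lines.

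The eosinophil receptor genes Il5ra, Ccr3 and Ptgdr2 gave little signal in any group. The IL-5 receptor alpha chain Il5ra averaged 30.3 in Ts1Cje Trib1 lines, 29.7 in B6 Trib1 lines, 29.2 in Ts1Cje cells and 29.5 in B6 cells, and none of its contrasts was called (limma adjusted p from 0.618 to 0.949). Il5ra still exceeded the 40th percentile on all 3 arrays of each group. The eotaxin receptor Ccr3 lay between 11.99 and 14.3 on all 12 arrays, under the 40th percentile, and did not pass the filter. The prostaglandin D2 receptor Ptgdr2 did not pass it either. The arrays thus held granule gene signal without signal from Ccr3, and the labels name no eosinophils among the cells.

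Other receptors and effectors of eosinophils include several that mast cells and basophils share. Of the 12 listed, 8 passed the filter. On each background 7 of these were called higher in the lines, beside 30.4% of all probe sets in either contrast. Median log2 differences were 0.80 on the Ts1Cje and 1.09 on the B6 background, beside 0.02 and 0.03 over all genes. Alox15, among these 7, passed the filter only through the lines, where it is high, so its calls in these contrasts are no support. Alox5, the 5-lipoxygenase that starts leukotriene synthesis, averaged 2952 in Ts1Cje Trib1 lines, 2498 in B6 Trib1 lines, 484 in Ts1Cje cells and 302 in B6 cells. The histamine receptor Hrh4 averaged 109.8 in Ts1Cje Trib1 lines, 74.3 in B6 Trib1 lines, 27.9 in Ts1Cje cells and 25.4 in B6 cells.

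Alox15, the 12/15-lipoxygenase of eosinophils and macrophages, shared the lower level in the trisomic lines with Prg2 and Siglecf. It averaged 31.8 in Ts1Cje Trib1 lines, 61.4 in B6 Trib1 lines, 19.5 in Ts1Cje cells and 18.4 in B6 cells, dim in both groups without Trib1. The log2 difference between the lines was -0.71 (SE 0.0542, limma adjusted p = 9.53e-07) and the interaction was -0.75 (limma adjusted p = 7.2e-06). Alox5 and Hrh4, by contrast, were higher in the trisomic lines, by 0.24 and 0.48 (limma adjusted p = 0.00095 and 0.000643). Ltc4s and Csf2rb2, also on this list, were higher by 0.28 and 0.19 (limma adjusted p = 0.0024 and 0.0109). Of the 8 genes that passed, 4 were thus called higher and only Alox15 lower (median log2 difference 0.20). Of all probe sets, 8.91% were called higher and 6.82% lower.

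Of 10 listed transcription factors that act in the eosinophil lineage, 9 passed the filter. In the lines 7 were called higher and 2 lower than in Ts1Cje cells, where 30.4% of all probe sets were called higher and 23.7% lower, and 6 were called higher and 2 lower than in B6 cells, where 30.4% were called higher and 30.3% lower. The list's median log2 differences were 0.31 and 0.26 in these contrasts, beside 0.02 and 0.03 over all genes. Gata1, which drives the eosinophil, mast cell, megakaryocyte and erythroid lineages, averaged 654 ± 35.1 in Ts1Cje Trib1 lines, 680 ± 24.3 in B6 Trib1 lines, 98.8 ± 16.8 in Ts1Cje cells and 198 ± 2.85 in B6 cells (SD, n = 3 each). Its level was higher with Trib1 by 2.56 on the Ts1Cje and 1.71 on the B6 background (limma adjusted p = 5.81e-12 and 7.23e-10), and between the lines the log2 difference was -0.05 (SE 0.0798, limma adjusted p = 0.725).

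Spi1, which encodes PU.1, averaged 305 in Ts1Cje Trib1 lines, 450 in B6 Trib1 lines, 890 in Ts1Cje cells and 637 in B6 cells. It was lower in the trisomic lines than in B6 Trib1 lines (-0.54, SE 0.0533, limma adjusted p = 1.02e-05). It was higher in Ts1Cje than in B6 cells (0.47, limma adjusted p = 1.23e-05), with an interaction of -1.02 (limma adjusted p = 3.55e-07). The list went both ways here. Between the lines 1 factor was called higher and 3 lower, beside 8.91% and 6.82% of all probe sets. Between the cells 2 were called higher and 3 lower, beside 19.2% and 27.6%. The interaction was called positive for 2, Gata1 (0.86) and Zfpm1 (1.16), and negative for 2, beside 25.8% and 16.3%. Irf8, a factor of monocytes and dendritic cells that also acts in eosinophil progenitors, averaged 32.6 in Ts1Cje Trib1 lines, 91.9 in B6 Trib1 lines, 521 in Ts1Cje cells and 750 in B6 cells. Zfpm1 encodes FOG-1, a GATA cofactor known to repress the eosinophil fate, and averaged 139 in Ts1Cje Trib1 lines, 170.3 in B6 Trib1 lines, 42.7 in Ts1Cje cells and 140 in B6 cells. It was lower in Ts1Cje than in B6 cells by a log2 difference of -1.43 (limma adjusted p = 4.77e-09). Between the lines it was lower in Ts1Cje Trib1 by -0.27 (limma adjusted p = 0.015). With Trib1 it was higher by 1.42 on the Ts1Cje and 0.26 on the B6 background (limma adjusted p = 4.42e-10 and 0.00468). The part of Zfpm1 in the granule gene results was not tested. Cebpa, the factor that Trib1 targets as a protein, averaged 1033 in Ts1Cje Trib1 lines, 930 in B6 Trib1 lines, 513 in Ts1Cje cells and 400 in B6 cells at the RNA level.

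**Figure D4:**
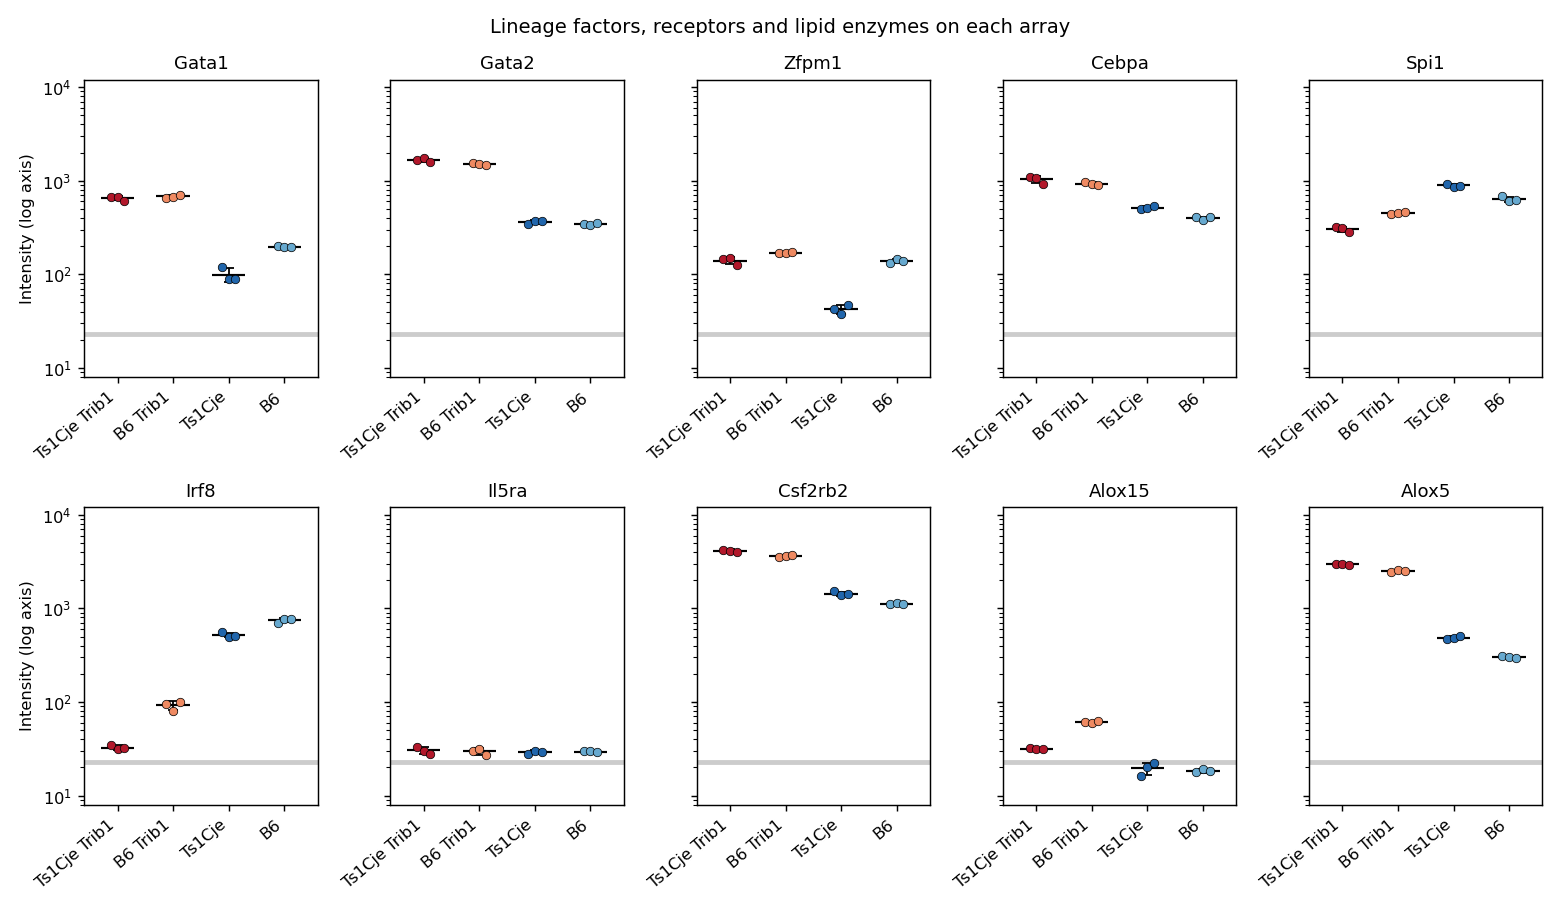
Intensity (log axis) of 6 lineage factors, the receptor genes Il5ra and Csf2rb2 and the lipoxygenases Alox15 and Alox5 on every array, by group, with the mean as a line, the SD as bars and the range of the arrays' 40th percentiles as a grey band. Gata1 and Alox5 stand higher in both lines, Irf8 and Spi1 lower, and Il5ra stays at means of 29.2 to 30.3 in all 4 groups.

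Of 8 other Siglec genes listed, 6 passed the filter. In Ts1Cje Trib1 lines 5 were called lower than in Ts1Cje cells (median log2 difference -0.55, beside 0.02 over all genes), where 23.7% of all probe sets were called lower. In B6 Trib1 lines 3 were called higher and 2 lower than in B6 cells (median 0.04, beside 0.03 over all genes), where 30.4% were called higher and 30.3% lower. Cd22, an inhibitory receptor of B cells, averaged 114 in Ts1Cje Trib1 lines, 115 in B6 Trib1 lines, 367 in Ts1Cje cells and 675 in B6 cells. The myeloid Siglec Cd33 averaged 117 in Ts1Cje Trib1 lines, 176 in B6 Trib1 lines, 270.4 in Ts1Cje cells and 130.5 in B6 cells, with an interaction of -1.50 (SE 0.0733, limma adjusted p = 7e-09). Its level was lower in the trisomic lines (-0.53, limma adjusted p = 9.6e-06) and higher in Ts1Cje than in B6 cells (0.97, limma adjusted p = 1.64e-08), the same signs as those of Prg2 in these contrasts. Siglecg, the chromosome 7 neighbour of Siglecf, averaged 35.4 in Ts1Cje Trib1 lines, 46.3 in B6 Trib1 lines, 74.3 in Ts1Cje cells and 127 in B6 cells.

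Of 10 general granule and secretion genes listed, 9 passed the filter. In Ts1Cje Trib1 lines 2 were called higher and 4 lower than in B6 Trib1 lines (median log2 difference 0.01), where 8.91% of all probe sets were called higher and 6.82% lower. In Ts1Cje cells 6 were called higher and 1 lower than in B6 cells (median 0.21, beside 0.01 over all genes), where 19.2% were called higher and 27.6% lower. Stx11, a syntaxin of granule release, averaged 450.2 in Ts1Cje Trib1 lines and 654 in B6 Trib1 lines, a log2 difference of -0.52 (SE 0.0336, limma adjusted p = 1.66e-07). In cells without Trib1 it averaged 445 on the Ts1Cje background and 305 on the B6 background (log2 difference 0.52, limma adjusted p = 8.87e-08).

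Markers of other cells moved with the groups as well. All 8 measured markers of basophils and mast cells, of 10 listed, were called higher with Trib1 on both backgrounds, beside 30.4% of all probe sets in either contrast, with summed intensities of 21256 to 22080 in Ts1Cje Trib1 lines, 18931 to 19219 in B6 Trib1 lines, 4738 to 5036 in Ts1Cje cells and 3047 to 3075 in B6 cells. Among them Fcer1a, the alpha chain of the IgE receptor, averaged 5230 in Ts1Cje Trib1 lines, 2755 in B6 Trib1 lines, 246 in Ts1Cje cells and 43.9 in B6 cells, in the same direction with Trib1 as Siglecf. Between the lines the list was mixed. Fcer1a and Ms4a2 were called higher in the trisomic lines, while Mcpt8, Tpsb2, Kit and Hdc were called lower. These 2 higher and 4 lower calls (median log2 difference -0.06) stand beside 8.91% and 6.82% of all probe sets. The part of basophil and mast cell markers in the Siglecf and Prg2 results was not tested.

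Macrophage markers, 9 of 9 measured, summed to 1080 to 1187 in Ts1Cje Trib1 lines, 2661 to 2752 in B6 Trib1 lines, 14057 to 14435 in Ts1Cje cells and 10179 to 10491 in B6 cells, and 8 of them were called lower in the trisomic than in the B6 Trib1 lines, beside 6.82% of all probe sets. Neutrophil secondary granule markers, 8 of 8 measured, summed to 7460 to 7664 in Ts1Cje Trib1 lines, 14279 to 14396 in B6 Trib1 lines, 29724 to 30219 in Ts1Cje cells and 18070 to 18143 in B6 cells. The neutrophil primary granule list, 5 of 5 measured, summed to 6188 to 6387 in Ts1Cje Trib1 lines, 10492 to 10833 in B6 Trib1 lines, 17936 to 18708 in Ts1Cje cells and 14221 to 14607 in B6 cells. The sums of all these lists thus had the same extremes as Epx, lowest in Ts1Cje Trib1 lines and highest in Ts1Cje cells. Single markers departed from this, among them Mpeg1, highest in B6 cells (1671, against 1546 in Ts1Cje cells). C1qa was lowest in B6 Trib1 lines (28.2, against 38.7 in Ts1Cje Trib1 lines). The part of these lists in the Epx result was not tested.

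Alveolar macrophages also carry Siglec-F, and 4 of the 6 markers listed for them passed the filter. Their intensities summed to 224 to 242 in Ts1Cje Trib1 lines, 413 to 460.4 in B6 Trib1 lines, 2238 to 2564 in Ts1Cje cells and 2499 to 2600 in B6 cells. Fabp4 is a fatty acid-binding protein. It averaged 45.7 in Ts1Cje Trib1 lines, 175 in B6 Trib1 lines, 2033 in Ts1Cje cells and 2212 in B6 cells, where it made up most of the sums. All 4 markers were called lower in the lines, beside 23.7% of probe sets for Ts1Cje and 30.3% for B6. Pparg and Itgax fell by only -0.14 and -0.18 for B6 and by -0.58 and -0.62 for Ts1Cje. Car4 passed the filter through the cells, where it is high. The part of alveolar macrophages in the Siglecf result was not tested. B lineage markers, 5 of 6 measured, summed to 141 to 159 in Ts1Cje Trib1 lines, 136 to 157 in B6 Trib1 lines, 1372 to 1516 in Ts1Cje cells and 3568 to 3799 in B6 cells.

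The genes most like the members over the 12 arrays were found by Pearson correlation of log2 values among 12559 other genes, as a description of 4 groups of arrays and with no test. Epx ran closest to P2ry13 (0.995), Acod1 (0.995), Fcgr1 (0.990), Fkbp1b (0.988) and Cd52 (0.986). P2ry13 is an ADP receptor, Acod1 makes itaconate in activated macrophages and Fcgr1 encodes the high-affinity IgG receptor. Fcgr1 averaged 36.3 in Ts1Cje Trib1 lines, 118 in B6 Trib1 lines, 202 in Ts1Cje cells and 114 in B6 cells.

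Prg2 ran closest to Actn1 (0.981), Lst1 (0.971), its own homologue Prg3 (0.963), Rnd3 (0.961) and Pilra (0.948). Actn1 encodes the actin crosslinker alpha-actinin and Pilra an inhibitory receptor of myeloid cells. Siglecf ran closest to BC080696 (0.997), Klrb1f (0.995), Asb2 (0.995), Gp9 (0.994) and Plek (0.994). Gp9, a platelet glycoprotein, averaged 338 in Ts1Cje Trib1 lines, 505 in B6 Trib1 lines, 52.7 in Ts1Cje cells and 57.4 in B6 cells, the order that Siglecf had in the lines.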

How the data were processed

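The deposited values were 1 intensity per probe set and array on a linear scale, credited to MAS5 per the submitters' processing notes. MAS5 uses mismatch probes, which perfect-match arrays lack, and the scaling and the genome build are not given in the sources used here. Gene symbols came from the platform annotation, in which 28898 of 45141 probe sets had 1 symbol, 551 had several, 15588 had none and 104 were controls. For 28689 of those with 1 symbol the gene identifier was found in the RefSeq gene table, and the symbol given there was used. No further scaling was applied. The offset of 15 added before taking log2 was the 20th percentile over all arrays, rounded, and draws differences of dim probe sets towards 0. Limma 3.58.1 in R 4.3.3 fitted 1 mean per group to all 12 arrays, with two-sided tests and Benjamini-Hochberg adjustment over 28543 kept probe sets. The script was tested on simulated data. A listed gene was represented by its kept probe set with the highest mean. List counts are thus by gene, while the shares beside them are over all probe sets. Of 12560 genes counted like the lists, 1318 were called higher and 1094 lower between the lines. The counts were 4161 and 3832 for B6 Trib1 minus B6, and 4179 and 3302 for Ts1Cje Trib1 minus Ts1Cje. For Ts1Cje minus B6 they were 2734 and 3559.

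Named genes were all members, the 5 genes most correlated with Prg2, Epx and Siglecf, and members of the gene lists. The members and lists were chosen with earlier results of these data known. Same-numbered arrays did not deviate together: 18 correlations ran from -0.451 to 0.368 and 4 of 12 arrays were most like their own number, so numbers were not used as pairs. Alternatives covered scaling, offset, filters, features tested, variance model, samples in the fit, the replicate block and each array left out. Array scan dates and probe-level files were not used.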

Additional observations from a re-analysis of the deposited data

Results flagged for a closer look

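For Prg2, Epx and Prg3, which were above background in all 4 groups, the Ts1Cje minus B6 difference with Trib1 differed from that without Trib1 by a direct test, the interaction term of the limma fit. The difference of these log2 differences was -2.52 for Prg2, -2.68 for Epx and -1.30 for Prg3, and the genotype difference was negative with Trib1 and positive without it. The same term was -1.0 for Siglecf and -1.56 for Rnase2a. For Siglecf the groups without Trib1 were near background and for Rnase2a the lines were dim, so for these genes it restates the difference between the remaining pair of groups.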

How the results depend on the processing

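Over 23 alternative settings, 12 of which left out 1 array each, the 25 member results gave 570 values, and 566 kept their direction and their side of the threshold. The fit to only the groups compared gave no separate value for the interaction, which uses all groups. All 22 called results stayed called. With the replicate number as a block the Prg2 difference between the lines was -1.43, and the block changed no call of a member. Of the 5 members, 4 were called between the lines, 4 in the lines against B6 cells and 5 in those against Ts1Cje cells. Between the cells 4 were called, and in the interaction 5. These counts also held with each array left out. They include Rnase2a in the lines against the cells, where its call is no support because the filter kept it through the cells. Calls were common over all probe sets. In the same order of contrasts, 8.91%, 30.4%, 30.4%, 19.2% and 25.8% were called higher or positive. Those called lower or negative were 6.82%, 30.3%, 23.7%, 27.6% and 16.3%. Siglecf in Ts1Cje minus B6 reversed to -0.077 (adjusted p = 0.402) without the first Ts1Cje array and to -0.020 (adjusted p = 0.887) without the second B6 array, against 0.03 with all arrays; over the arrays left out in turn it ran from -0.077 to 0.091 and was never called. Epx in B6 Trib1 minus B6 passed after quantile normalization (0.24, adjusted p = 0.0168), and Rnase2a between the lines passed with an offset of 1 (0.23, adjusted p = 0.0124), so 5 members were called there. Rnase2b in B6 Trib1 minus B6 lost its call under 7 settings, the block among them. Testing 1 probe set per gene left fewer features, with 2701 against 4489 called between the lines, 8193 against 17316 for B6 Trib1 minus B6, 7644 against 15450 for Ts1Cje Trib1 minus Ts1Cje, 6608 against 13377 for Ts1Cje minus B6 and 6110 against 12001 for the interaction. Signals near the 40th percentile, as for Siglecf without Trib1 and Rnase2a with it, give only a bound or an imprecise ratio.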
